A study of Mus musculus with 10 samples.

Results

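The genes described here build, cut or protect the extracellular matrix: the collagens (Col followed by a number, a and a number), the laminin chains (Lama, Lamb and Lamc), the matrix metalloproteinases (Mmp) and the tissue inhibitors of metalloproteinases (Timp). They were chosen by symbol in the platform annotation, with 1 probe set per gene, the brightest by its mean over all arrays. This gave 72 of the 18193 genes with a probe set of their own, of which 42 are collagens, 10 laminin chains, 16 metalloproteinases and 4 inhibitors. The values come from BMEL cells, a bipotential cell line of mouse embryonic liver that can turn into hepatocyte-like or bile duct-like cells. Of 10 Affymetrix arrays, 5 held RNA of cells that had received an antisense oligonucleotide against miR-30a, made of locked nucleic acid, and 5 held RNA of cells that had received a scrambled oligonucleotide. Oligofectamine carried the oligonucleotide in both groups. All arrays come from this kind of cell, and the labels name no untransfected sample, dose or time after transfection.

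Collagens are secreted as triple helices of alpha chains. Fibrillar collagens give connective tissue its strength, while type IV collagen forms a sheet-like network in the basement membrane under epithelia. Laminins are cross-shaped trimers of an alpha, a beta and a gamma chain that polymerise in the same membrane and bind integrins. Metalloproteinases are zinc enzymes that cut these proteins, and the inhibitors bind their active site. In developing liver, laminin and type IV collagen are laid down around the bile ducts, and hepatoblasts that touch them take on duct features.

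MicroRNAs repress transcripts that carry a match to their seed, bases 2 to 8 of the mature strand. The mature strands of the Mir30a hairpin are shown because miR-30a is the target of the oligonucleotide, and beside them the other strands with the 5p seed in the RefSeq table used here (GRCm38.p6). Capitals mark the seed.
miR-30a-5p, chr1:23272274-23272295, plus strand: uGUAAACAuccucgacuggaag
miR-30c-5p, chr1:23291714-23291736, plus strand: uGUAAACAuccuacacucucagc
miR-30e-5p, chr4:120772660-120772681, minus strand: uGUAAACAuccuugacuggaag
miR-384-5p, chrX:105344332-105344354, minus strand: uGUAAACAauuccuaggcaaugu
miR-30a-3p, chr1:23272315-23272336, plus strand: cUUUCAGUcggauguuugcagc
The first 4 share the seed GUAAACA, and the 3p strand of miR-30a has another, UUUCAGU. miR-30c-5p has the same sequence at another locus, chr4:120769584-120769606, minus strand. Only strands in this RefSeq table were searched. The level of mature miR-30a was not measured here, so the arrays give no check of the knockdown.

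The array medians of log2 expression lay between 5.21 and 5.24, and no pair of arrays held identical values. A gene was tested if its mean lay at or above 4.559, the level under which 40% of probe sets fall. That left 12633 genes, of which 43 are members: 24 collagens, 7 laminin chains, 9 metalloproteinases and 3 inhibitors. Markers of liver epithelial cells (Krt8, Krt18, Epcam, Hnf4a and others) were above the filter level for 12 of 13 genes on the array. Markers of fibroblasts and stellate cells were under it for 9 of 15, among them Pdgfra, Lrat, Lum and Thy1. The 6 above it included Des, Acta2 and Dcn (5.67, 5.44 and 5.15 in antisense arrays). Markers of endothelial cells were under it for 8 of 13, among them Pecam1, Cdh5 and Stab2. The 5 above it included Flt1, Egfl7 and Esam (8.17, 7.65 and 5.06 in antisense arrays). The mean log2 level of the fibroblast and stellate markers ranged from 4.17 to 4.28 in antisense arrays and from 4.19 to 4.30 in scrambled arrays, and no member of that list passed the test. In such bulk RNA, fewer cells of a type and less RNA per cell cannot be told apart.

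The 29 members under the filter level included the main collagens of connective tissue. Col1a1, which encodes a chain of type I collagen, averaged 3.60 in antisense arrays and 3.64 in scrambled arrays, and Col3a1, of type III collagen, 3.36 and 3.39. Also under it were the alpha chain genes Lama1, Lama3 and Lama4, the gelatinase gene Mmp2, the stromelysin gene Mmp3, the macrophage elastase gene Mmp12 and the inhibitor gene Timp4. Means over all arrays of these 29 lay between 2.41 (Col24a1) and 4.42 (Col6a3), and both group means were under the filter level for all 29. Their log2 differences ran from -0.16 (Mmp19) to 0.09 (Col4a3). With no filter the smallest limma adjusted p among them was 0.315.

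The laminin chain gene Lamb1 and the collagen gene Col7a1 rose with the antisense oligonucleotide, and no tested member fell. With 2 of 43 tested members called, 4.65% passed, against 1.53% of all genes tested, of which 1.16% rose and 0.372% fell. A fit with the replicate number as a block added Timp1, Lamc3 and Col9a3, all higher, which made 5 of 43 (11.6%) against 3.05% of all genes, of which 2% rose and 1.04% fell. The median log2 change of the tested members was 0.04, against 0.01 over all genes. Without scrambled replicate 2 it was 0.0083, against 0.0101 over all genes, and over all 72 members with no filter it was 0.0014, so the difference in medians depends on 1 array and on the filter. Of the tested members, 26 of 43 lay above 0 (60.5%, against 55.1% of all genes). The 26 include Col11a2, whose scrambled mean (4.55) lay under the filter level, so its sign adds nothing to the count. The changes were small, from -0.18 (Col19a1) to 0.51 (Timp3). The groups did not overlap for 4 members, Lamb1, Col7a1, Col4a2 and Col9a3, all higher in antisense arrays (9.3%, against 2.74% of all genes), and for no member in the lower direction (1.18% of all genes, 3.92% in both directions). An unadjusted limma p under 0.05 was found for 14 of 43 members in the higher direction, against 8.41% of all genes. In the lower direction it was found for 2 of 43 (4.65%), near the 4.5% of all genes (12.9% in both directions). Of the 43 members, 13 were higher in antisense in all 5 pairs, against 10.6% of all genes. Lama2, Col16a1 and Col6a1 were lower in antisense in all 5 pairs, a direction for which the share over all genes was not computed.

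**Figure D1:**
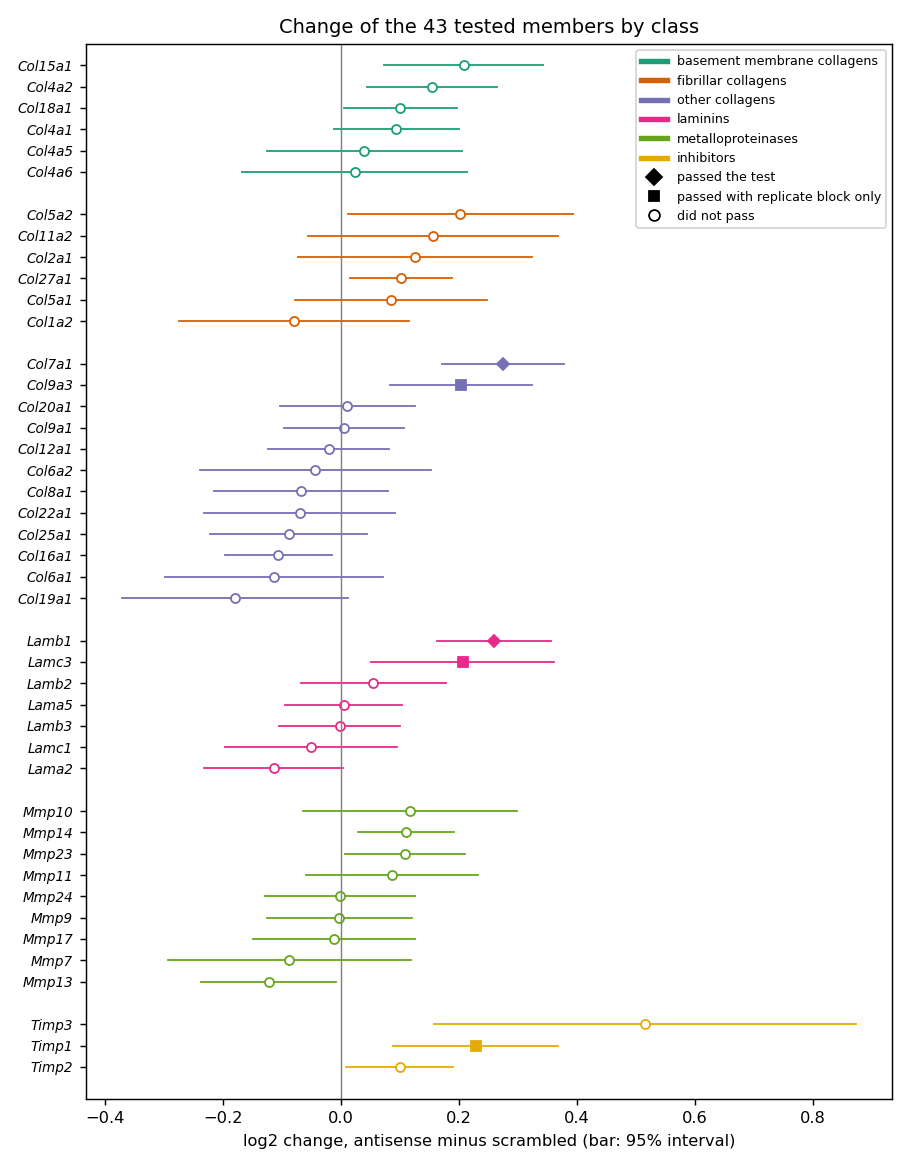
Log2 change (antisense minus scrambled, with its 95% interval from limma) of the 43 tested members, grouped by class. Diamonds passed the test, squares passed with the replicate block only and open circles did not pass. The filled symbols all lie right of 0, and the points of the inhibitors and of the basement membrane collagens all lie right of 0.

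Lamb1 encodes a beta chain found in most laminin trimers of embryonic and epithelial basement membranes. It stood at 9.25, 9.32, 9.26, 9.33 and 9.26 in antisense replicates 1 to 5, and at 9.01, 9.16, 9.02, 8.95 and 8.99 in scrambled replicates 1 to 5. Every antisense array lay above every scrambled array, the nearest being scrambled replicate 2. The means were 9.29 ± 0.039 in antisense arrays and 9.03 ± 0.081 in scrambled arrays (SD, n = 5 each), 1.20-fold higher in antisense arrays. The log2 change of 0.26 (SE 0.0445) passed with a limma adjusted p of 0.0132. The adjusted p was 0.0160 with the block and was at most 0.0424 with 1 array left out. The 2 other Lamb1 probe sets above the filter changed by 0.27 and 0.28, in the same direction, with wider spread (adjusted p = 0.182 and 0.253 in a limma fit of all probe sets).

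No other laminin chain passed without the block. Lamc1, the gamma chain that most often pairs with it, averaged 9.003 ± 0.058 in antisense arrays and 9.05 ± 0.158 in scrambled arrays (SD, n = 5 each), a change of -0.05. Its second probe set was at -0.28 (SE 0.214), the mean of both gave -0.16, and without scrambled replicate 2 or 4 the change was -0.0044 or -0.11. Lama5, the main epithelial alpha chain, changed by 0.00 with a 95% interval of -0.09 to 0.10, and Lamb3, a chain of the hemidesmosome laminin, also by 0.00 with an interval of -0.10 to 0.10. Lamb2 was at 0.05 and Lama2, the alpha chain of muscle laminin, at -0.11 (limma adjusted p = 0.404), where each of the 5 antisense arrays was below its pair. In all, 1 of 7 tested chains rose (14.3%, against 1.53% of all genes), or 2 with the block (28.6%, against 3.05%). None fell, and 4 lay above 0 (57.1%, near the 55.1% of all genes).

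Each array's log2 ratio of Lamb1 to another chain is given as a description, with no test, because Lamb1 was picked for its rise. The ratio of Lamb1 to Lamc1 was 0.31 higher in antisense arrays (SE 0.0546), and so in 5 of 5 pairs. Against Lama5 it was 0.26 higher, against Lama2 0.37, against Lamb3 0.26 and against Lamb2 0.21, each in 5 of 5 pairs. Against Lamc3 it was 0.05 higher, and so in 3 of 5 pairs.

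Lamc3, a gamma chain gene, was near the filter level. Its values were 4.81, 4.99, 4.80, 5.05 and 4.90 in antisense replicates 1 to 5, and 4.63, 4.80, 4.53, 4.90 and 4.65 in scrambled replicates 1 to 5. Groups overlapped, yet the antisense array was higher in each of the 5 pairs. The change of 0.21 missed the threshold in the plain limma fit (SE 0.0717, adjusted p = 0.222) and passed with the block (SE 0.0342, adjusted p = 0.0210). It rests on 1 probe set, since the other one for this gene was under the filter level.

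**Figure D2:**
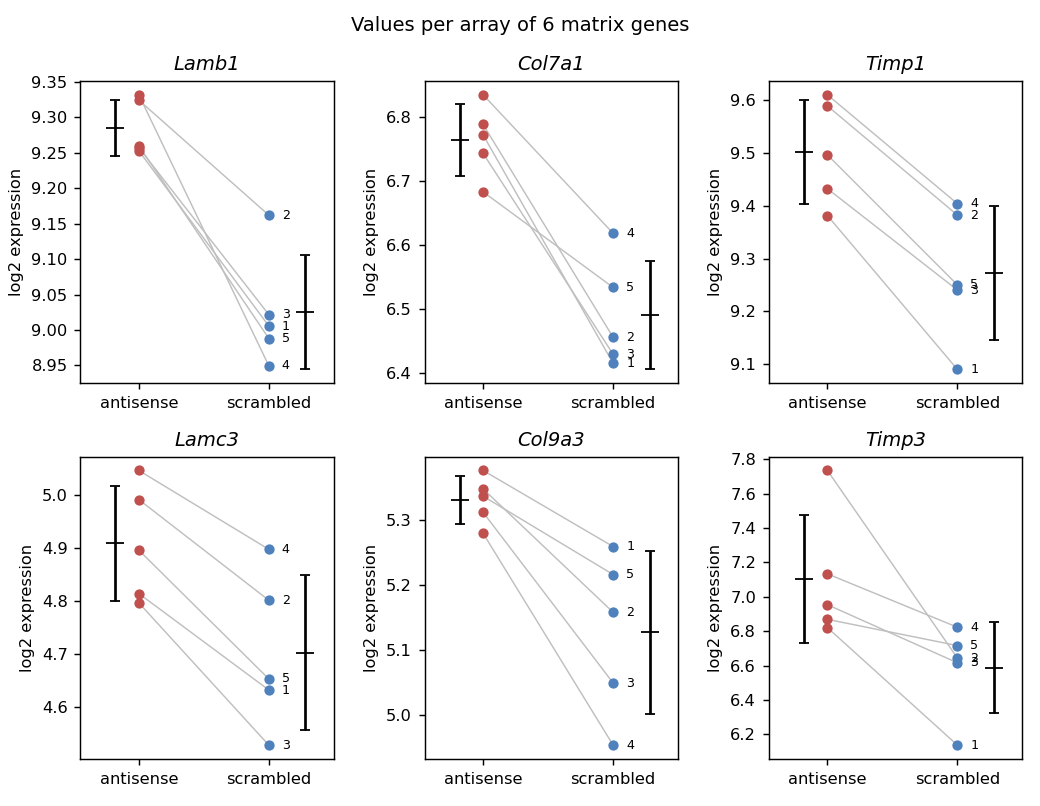
Log2 expression on each array of Lamb1, Col7a1, Timp1, Lamc3, Col9a3 and Timp3, with antisense arrays at left and scrambled arrays at right. Grey lines join arrays of the same replicate number, printed at right, and bars give the mean ± SD (n = 5). Lamb1, Col7a1 and Col9a3 do not overlap between groups, and in all 6 genes each line slopes down to the scrambled array.

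Col7a1 encodes the collagen of the anchoring fibrils that tie the basement membrane of stratified epithelia to the tissue below. It was at 6.77, 6.79, 6.74, 6.84 and 6.68 in antisense replicates 1 to 5, and at 6.41, 6.46, 6.43, 6.62 and 6.53 in scrambled replicates 1 to 5. The lowest antisense array, replicate 5, lay above the highest scrambled array, replicate 4. Means were 6.76 ± 0.056 in antisense and 6.49 ± 0.085 in scrambled arrays (SD, n = 5 each), 1.21-fold higher in antisense arrays. The log2 change of 0.27 (SE 0.0477) passed with a limma adjusted p of 0.0134. With 1 array left out the adjusted p was at most 0.0453. The call rests on the single Col7a1 probe set.

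Among the other non-fibrillar collagens, 1 of 12 tested genes rose, Col7a1 (8.33%, against 1.53% of all genes). With the block Col9a3 rose as well (16.7%, against 3.05%). None fell, and 8 lay below 0, which left 33.3% above 0, against 55.1% of all genes. Col9a3, a chain of the collagen that decorates cartilage fibrils, was at 5.38, 5.35, 5.31, 5.28 and 5.34 in antisense replicates 1 to 5, and at 5.26, 5.16, 5.05, 4.95 and 5.22 in scrambled replicates 1 to 5. Its groups did not overlap, and the scrambled arrays were the more spread. The change of 0.20 (SE 0.0557) missed the threshold in the plain limma fit (adjusted p = 0.101) and passed with the block (adjusted p = 0.0436). The Col9a3 result rests on 1 probe set, since its others were under the filter level (changes of -0.04 and -0.02). Col9a1, its partner chain, was at 0.00 (95% interval -0.10 to 0.11). The beaded filament collagen genes Col6a1 and Col6a2 were at -0.11 and -0.04, and Col16a1, a fibril-associated collagen, at -0.11 (limma adjusted p = 0.289). Col19a1 had the lowest value of all tested members, -0.18, with an interval of -0.37 to 0.01.

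The 6 tested basement membrane collagens all lay above 0, against 55.1% of all genes, with a median change of 0.10. None of them passed the test. Col4a1 and Col4a2 encode the chains of the common type IV network and lie head to head in the genome. Col4a2 was at 10.58, 10.86, 10.60, 10.69 and 10.65 in antisense replicates 1 to 5, and at 10.48, 10.56, 10.53, 10.52 and 10.52 in scrambled replicates 1 to 5. Every antisense array was the higher, with replicate 2 standing above the rest of its group. The difference, 0.15 with SE 0.0508, did not pass in limma (adjusted p = 0.191, with the block 0.0943). Col4a1 averaged 12.18 ± 0.0999 in antisense and 12.09 ± 0.040 in scrambled arrays (SD, n = 5 each), a change of 0.09 with an interval of -0.01 to 0.20.

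As deviations from their group means, Col4a1 and Col4a2 correlated at 0.854 over the 10 arrays, each of which gave both values. Without antisense replicate 2, the highest array for both, the value over the other 9 was 0.381. In RefSeq (GRCm38.p6) the annotated starts lie 21 bases apart, on opposite strands, with Col4a2 on the plus strand. The stretch from the Col4a2 start to the Col4a1 start is shown because both transcripts begin in it.
Col4a2 to Col4a1 start, chr8:11312805-11312826, plus strand: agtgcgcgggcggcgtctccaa
The shared start region is annotation, and no measurement here bears on its activity.

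**Figure D3:**
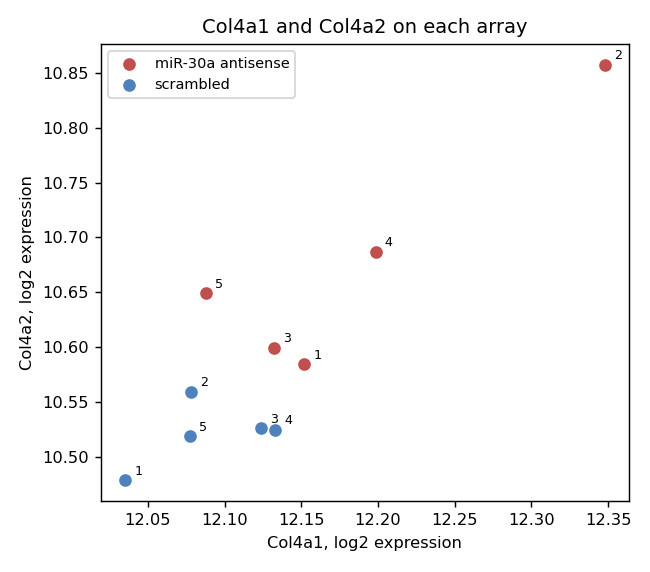
Log2 expression of Col4a2 (vertical axis) against Col4a1 (horizontal axis) on each of the 10 arrays, labelled by replicate number. Antisense replicate 2 is the highest array on both axes, and every antisense array lies above every scrambled array on the Col4a2 axis.

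Col18a1, a collagen of epithelial and vascular basement membranes and the source of endostatin, averaged 10.66 ± 0.065 in antisense arrays and 10.56 ± 0.060 in scrambled arrays (SD, n = 5 each). Its change of 0.10 did not pass (limma adjusted p = 0.354), and its second probe set was at 0.12. Col15a1, its relative, was at 0.21 (SE 0.0621, limma adjusted p = 0.137) and ranged from 5.95 to 6.13 in antisense arrays and from 5.66 to 6.03 in scrambled arrays, an overlap made by scrambled replicate 2. Col4a5 and Col4a6 were at 0.04 and 0.02, and with 1 array left out they reached -0.0056 and -0.031.

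Of 6 tested fibrillar collagens, none passed in either fit, and 5 lay above 0 (83.3%, against 55.1% of all genes). Col5a2, a chain that nucleates collagen fibrils, was at 5.54, 5.90, 5.62, 5.65 and 5.71 in antisense replicates 1 to 5, and at 5.19, 5.42, 5.51, 5.60 and 5.68 in scrambled replicates 1 to 5. The groups overlapped, and the change of 0.20 had an interval of 0.01 to 0.39 (limma adjusted p = 0.349). Col27a1 was at 0.10 (adjusted p = 0.289) and higher in antisense within each of the 5 pairs. Col11a2, Col2a1 and Col5a1 were at 0.16, 0.13 and 0.09. Col11a2 averaged 4.71 in antisense and 4.55 in scrambled arrays, the second under the filter level, so it was tested only through its antisense values and its sign adds nothing to the count. Col1a2, a type I chain near the filter level, was at -0.08 with an interval of -0.27 to 0.11.

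All 3 tested inhibitors lay above 0, against 55.1% of all genes. With the block 1 of the 3, Timp1, rose (33.3%, against 3.05% of all genes). Timp1 is a secreted inhibitor of most soluble metalloproteinases. It was at 9.38, 9.59, 9.43, 9.61 and 9.50 in antisense replicates 1 to 5, and at 9.09, 9.38, 9.24, 9.40 and 9.25 in scrambled replicates 1 to 5. The groups overlapped through antisense replicate 1, but the antisense array was higher within each of the 5 pairs. The change of 0.23, or 1.17-fold, missed the threshold in the plain limma fit (SE 0.0647, adjusted p = 0.115) and passed with the block (SE 0.0332, adjusted p = 0.0134). This rests on the single Timp1 probe set.

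Timp3, the inhibitor that binds to the matrix and also acts on ADAM proteases, had the largest change of any tested member. It was at 6.82, 7.73, 6.95, 7.13 and 6.87 in antisense replicates 1 to 5, and at 6.14, 6.64, 6.62, 6.82 and 6.72 in scrambled replicates 1 to 5. Antisense replicate 2 was the highest and scrambled replicate 1 the lowest, and antisense replicate 1 lay level with scrambled replicate 4. The change of 0.51, or 1.43-fold, did not pass (SE 0.165, limma adjusted p = 0.175, or 0.0660 with the block). Without antisense replicate 2 it was 0.36. The probe sets of the gene disagreed: a second was at 0.43, with groups that did not overlap, and another at -0.08. With the mean of its probe sets the change was 0.20. Timp2, which with Mmp14 activates the gelatinase encoded by Mmp2, was at 0.10 with an interval of 0.01 to 0.19 (limma adjusted p = 0.323), and its 5 probe sets above the filter lay between 0.03 and 0.10.

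**Figure D4:**
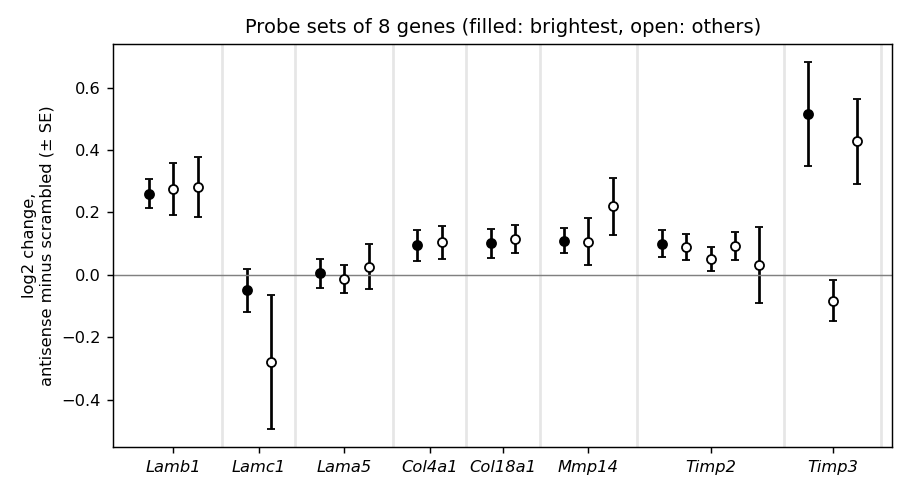
Log2 change (antisense minus scrambled, ± SE of a limma fit of all probe sets) of each probe set above the filter level for 8 genes, the brightest filled. The 3 Lamb1 probe sets lie together between 0.26 and 0.28, while the 3 Timp3 probe sets run from -0.08 to 0.51.

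None of the 9 tested metalloproteinases passed in either fit. With 4 above 0 and 5 below (44.4% above, against 55.1% of all genes), their median change was 0.00. Mmp14, the membrane-bound collagenase, was at 9.90, 9.98, 9.99, 9.96 and 9.93 in antisense replicates 1 to 5, and at 9.84, 9.79, 9.83, 9.91 and 9.85 in scrambled replicates 1 to 5. Only antisense replicate 1 and scrambled replicate 4 overlapped. The difference of 0.11 (SE 0.0375) did not pass in limma (adjusted p = 0.213). Its other probe sets were at 0.11 and 0.22, of which the second passed with the block (adjusted p = 0.0445 in the fit of all probe sets). Mmp13, the main interstitial collagenase of rodents, was at 8.72, 8.57, 8.83, 8.82 and 8.79 in antisense replicates 1 to 5, and at 8.90, 8.88, 8.92, 8.80 and 8.85 in scrambled replicates 1 to 5. The groups overlapped at antisense replicates 3 and 4, and the change of -0.12 did not pass (SE 0.0527, limma adjusted p = 0.344).

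Mmp23 was at 0.11, but its second probe set was at -0.02. The stromelysin genes Mmp10 and Mmp11 were at 0.12 and 0.09, the matrilysin gene Mmp7 at -0.09 and the membrane-type genes Mmp17 and Mmp24 at -0.01 and 0.00. The gelatinase gene Mmp9, near the filter level, was at 0.00 with an interval of -0.12 to 0.12. On each array's log2 ratio, Timp1 was 0.35 higher relative to Mmp13 in antisense arrays and 0.12 higher relative to Mmp14, each in 5 of 5 pairs. Both were picked after the values were seen and are given with no test.

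RefSeq promoter windows (GRCm38.p6, 250 bases before to 50 after the start) were found for 53 of the 72 members. The AP-1 site, searched as TGANTCA, the same on both strands, occurred in the windows of 6 of 11 metalloproteinases, Mmp3, Mmp7, Mmp10, Mmp12, Mmp13 and Mmp20, which is 54.5% against 8.97% of the 27025 genes in the table. Of the other members Col6a1 alone held one. The sites and their flanks are shown for the stromelysin Mmp10 and the collagenase Mmp13, since the AP-1 site is the best known shared element of these promoters. Capitals mark the site.
Mmp10, chr9:7502259-7502305, plus strand: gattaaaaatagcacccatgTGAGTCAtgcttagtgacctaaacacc
Mmp13, chr9:7272459-7272505, plus strand: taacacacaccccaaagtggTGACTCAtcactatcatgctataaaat
The sites lie at -63 to -57 (Mmp10) and -35 to -29 (Mmp13) from the start. The 3 tested metalloproteinases with the site were at 0.12 (Mmp10), -0.09 (Mmp7) and -0.12 (Mmp13), which differ in sign, and none of them passed.

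The GC box, searched as GGGCGG and its complement CCGCCC, occurred in 31 of 53 members (58.5%) against 38.2% of all genes in the table, and in 3 of 4 inhibitors. The CCAAT box, searched as CCAAT and ATTGG, occurred in 19 of 53 (35.8%) against 41.1%. Matches of different motifs overlapped in 1 of 60 member windows. The 200 bases before the start are shown for Lamb1 and Col7a1, which passed the test, and for Timp1, which passed with the block. Capitals mark GC boxes.
Lamb1, chr12:31265093-31265292, plus strand: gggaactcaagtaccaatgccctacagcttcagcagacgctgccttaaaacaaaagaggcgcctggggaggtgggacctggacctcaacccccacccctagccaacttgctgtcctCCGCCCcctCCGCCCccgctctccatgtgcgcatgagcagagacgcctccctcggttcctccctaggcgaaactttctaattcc
Col7a1, chr9:108953386-108953585, plus strand: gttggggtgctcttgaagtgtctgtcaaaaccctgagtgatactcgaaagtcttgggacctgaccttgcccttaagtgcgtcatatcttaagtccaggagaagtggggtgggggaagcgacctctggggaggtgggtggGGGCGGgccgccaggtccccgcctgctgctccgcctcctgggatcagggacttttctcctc
Timp1, chrX:20869966-20870165, plus strand: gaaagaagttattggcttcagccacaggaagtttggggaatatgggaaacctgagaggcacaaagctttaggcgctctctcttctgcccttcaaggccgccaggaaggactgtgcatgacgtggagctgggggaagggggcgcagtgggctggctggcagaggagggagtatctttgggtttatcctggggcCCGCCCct
The Lamb1 stretch holds 2 GC boxes, and those of Col7a1 and Timp1 hold 1 each. A match describes the letters only.

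Lists of genes that act on the same proteins are set against the 1.53% of all genes called, or 3.05% with the block, so that 1 call in a list of this size is near the background. Of 25 tested genes of collagen biosynthesis, secretion and crosslinking, 1 rose and none fell. Plod2, a lysyl hydroxylase that prepares collagen for crosslinking, averaged 8.66 in antisense arrays and 8.38 in scrambled arrays and rose by 0.27 (SE 0.0578, limma adjusted p = 0.0339), with its second probe set at 0.25. Its adjusted p was above the threshold in 8 of 10 fits with 1 array left out, up to 0.0841, and passed only without antisense replicate 4 or scrambled replicate 1. Bmp1, the procollagen C-proteinase, was at 0.16 (adjusted p = 0.0768), but its second probe set was at 0.04. P3h1, a prolyl hydroxylase, was at 0.10, with its second probe set at 0.14.

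Of 23 tested basement membrane and matrix glycoproteins 2 rose, none fell, and 18 lay above 0 (78.3%, against 55.1% of all genes). Fbln2, a fibulin that binds laminin and nidogen, averaged 11.34 in antisense arrays and 11.02 in scrambled arrays and rose by 0.32 (SE 0.0489, limma adjusted p = 0.00633). Ecm1, a secreted glycoprotein of basement membranes, averaged 9.33 in antisense arrays and 9.03 in scrambled arrays and rose by 0.31 (adjusted p = 0.0143). Both passed with each array left out in turn. Ltbp1, which tethers latent TGF-beta to the matrix, was at 0.21 (adjusted p = 0.0754), but its second probe set was at 0.03.

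Of 15 tested collagen and laminin receptors, Cd44, a receptor for hyaluronan that also binds collagen, rose by 0.21 (SE 0.0371, limma adjusted p = 0.0165), with its other probe sets at 0.15 and 0.22. Without antisense replicate 3 the adjusted p was 0.0550. The laminin-binding integrin genes Itgb4 (0.16) and Itga6 (0.11) did not pass, and a second Itga6 probe set was at 0.26.

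Of 23 tested other matrix proteases and inhibitors 1 rose and none fell, or 2 each way with the block. Adam8, a membrane metalloproteinase-disintegrin, averaged 7.31 in antisense arrays and 6.93 in scrambled arrays and rose by 0.38 (SE 0.0605, limma adjusted p = 0.00850). Plat, the tissue plasminogen activator, was at 0.20 (adjusted p = 0.0506, with the block 0.0482), though its second probe set was at -0.09. With the block Adamts15, a proteoglycan-cleaving protease (-0.38, adjusted p = 0.0902 without and 0.00707 with the block), and Cst3, the cathepsin inhibitor cystatin C (-0.21, 0.0701 without and 0.0182 with), fell.

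Of 18 tested TGF-beta-responsive and EMT genes none passed, while Ccn1, a matrix-associated signalling protein, rose with the block (0.38, limma adjusted p = 0.118 without and 0.0181 with it). Snai1 and Smad7 were at 0.25 and 0.11, and a second Smad7 probe set was at 0.03. Snai1 averaged 4.77 in antisense and 4.52 in scrambled arrays, the second under the filter level. It was thus tested only through its antisense values, and its sign carries no weight. Beside these lists, 1 of 6 tested blood and macrophage markers rose: Cd68, by 0.39 (adjusted p = 0.0176, and above the threshold without antisense replicate 3 or 4). The other 5 tested markers of that list did not pass, among them Cx3cr1 (0.07) and Fcgr1 (-0.06). Another 7, among them Ptprc, Adgre1 and C1qa, were under the filter level. The mean log2 level of the list ranged from 4.67 to 4.78 in antisense arrays and from 4.62 to 4.77 in scrambled arrays. Its part in the results was not tested.

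**Figure D5:**
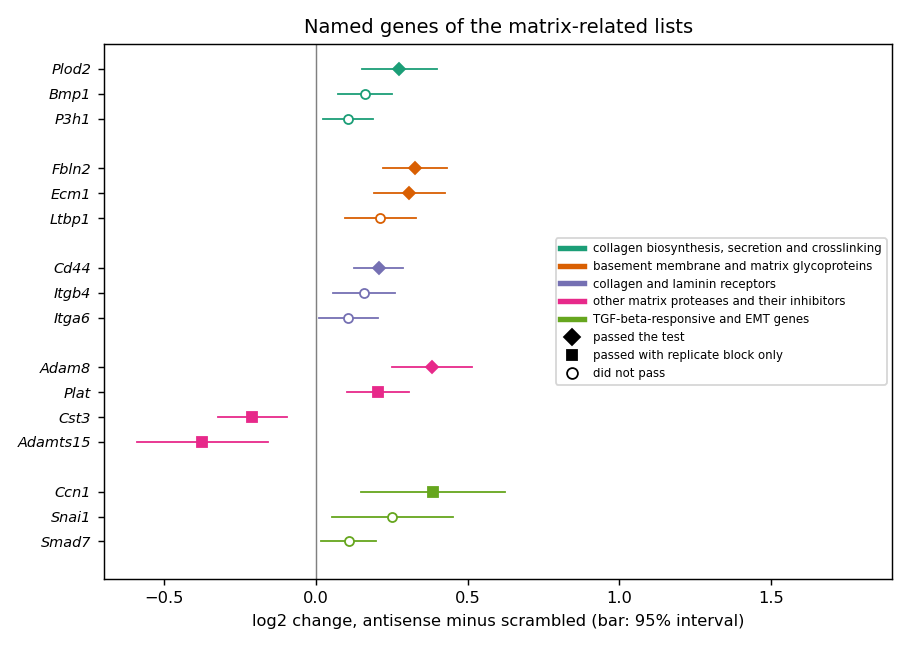
Log2 change (antisense minus scrambled, with its 95% interval from limma) of the genes named from 5 matrix-related lists. Diamonds passed the test, squares passed with the replicate block only and open circles did not pass. Cst3 and Adamts15 lie left of 0, and the others lie right of it.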

How the data were processed

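The deposited table gives log2 expression for 45101 probe sets on each of 10 arrays, 64 of them array controls. RNA was amplified and biotinylated with the MessageAmp Premier kit, per the labels' protocols. How the authors summarised and normalized the probes is not stated in the labels or the file, and the log2 scale was read from the values, which reach 14.1827. The values were used as deposited. Probe sets were named from the platform annotation (1 symbol for 34945, several for 932, which were not used, and 9160 not listed), with symbols updated through the gene identifier for 34741.

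For each gene the probe set with the highest mean was kept, and genes under the 40% level of 4.559 were not tested. The test was limma (version 3.58.1, R 4.3.3; lmFit then eBayes), two-sided and without a block, with Benjamini-Hochberg adjustment over all 12633 genes and a threshold of 0.05. A change is the log2 mean of antisense minus that of scrambled arrays; its SE is from the fit. Precision is limited by how many arrays there are. The labels do not say whether replicates were separate cultures, so p-values reflect the spread among these samples alone, and it may be technical.

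Both groups carry the replicate numbers 1 to 5. Taking each array as its deviation from the group mean, same-numbered arrays correlated at 0.172, 0.377, 0.112, 0.152 and 0.335, and arrays of different number at -0.312 to 0.231. The ranges overlap and no label states what a number stands for, so pairing by number is not settled. The main fit has no block, and the fit with the replicate block is given where it changes a call or a count. A pair in the text means the arrays that share a number.

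Members named in full are those past the threshold in either fit, the 3 of smallest p in each class, and Col1a1, Col1a2, Col3a1, Col4a1, Col4a2, Col18a1, Lama5, Lamb1, Lamc1, Mmp2, Mmp9, Mmp14, Timp1, Timp2 and Timp3. From each list those past the threshold in either fit and the 3 of smallest p are named. The members, lists and tests were chosen with earlier results of these data known. Alternatives were the block, quantile normalization, centred array medians, no filter, a 60% filter, the mean of probe sets, a trended prior and leaving out each array. The procedure was tested on simulated data, where it recovered 57.2% of changes of 0.25 and 96.6% of changes of 0.5 in the comparison of antisense with scrambled over 12633 genes. Python 3.11.15 with matplotlib 3.10.9 drew the figures.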

Additional observations from a re-analysis of the deposited data

Results flagged for a closer look

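Of 86 groups of 5 arrays (the 43 tested members in each group), 3 held an array whose gap to the nearest other exceeded 0.71 of the group's range, where chance gives about 1 in 20. Col16a1 was at 5.65 in antisense replicate 4, against 5.77 to 5.81 in the other antisense arrays. Col4a5 was at 7.62 in antisense replicate 2, against 7.90 to 8.001 in the others of its group. Lama5 was at 10.19 in scrambled replicate 4, against 10.33 to 10.39 in the other scrambled arrays. None of these genes passed the test with all arrays or with any of the arrays left out.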

How the results depend on the processing

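Lamb1 and Col7a1 were the 2 members called with all arrays, and they were called under each alternative and with each array left out (lowest and highest count of members 2 and 2). The replicate block raised the count to 5 by adding Col9a3 (0.20), Lamc3 (0.21) and Timp1 (0.23), and neither it nor any other alternative changed another call among the 23 tested members followed one by one. Over all genes the count of 193 became 385 with the block and 314 with a trended prior, and lay between 92 and 201 with 1 array left out (95, 92 and 123 without antisense replicates 3, 4 and 5, and 101 without scrambled replicate 3). Among the 104 tested genes of the matrix lists that are no members, 5 were called, 9 with the block, 11 with a trended prior and from 3 (without antisense replicate 3) to 6 with 1 array left out. The median change of the members, 0.04, was 0.0014 with no filter, 0.10 with the 60% filter, and ranged from 0.01 (without scrambled replicate 2) to 0.08 (without scrambled replicate 5). Genes near the filter level, such as Lamc3, Col1a2 and Mmp9, are limited by their low signal.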
